A study of Mus musculus with 6 samples.

Results

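Aminoacyl-tRNA synthetases are the enzymes that join each amino acid to its transfer RNA before translation. Their genes were followed in mouse splenic CD11c+ cells after IL-33 or PBS. The 36 members were taken by gene symbol from the 24346 genes listed in each library. The rule used no measured value, though earlier results of these data were known when the members were chosen. They comprise 20 genes of cytosolic enzymes and 16 genes of mitochondrial enzymes, whose symbols end in 2. RNA sequencing was done on 3 libraries after IL-33, an alarmin cytokine related to IL-1, and on 3 libraries after PBS, the vehicle. All 6 came from spleen and from an autoMACS sort for CD11c, a surface integrin used to enrich dendritic cells. The labels name no genotype, strain, age, dose or time, and do not say whether treatment took place in the animal or in culture. They also do not say that libraries of 1 group came from separate animals or cultures, so the p-values reflect library-to-library spread, part or all of which may be technical.

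Each synthetase recognises its own amino acid and tRNA, activates the amino acid with ATP and transfers it to the tRNA. Mammalian cells keep nuclear-encoded sets for the cytosol and for mitochondria, and several cytosolic enzymes sit together with 3 scaffold proteins in the multi-synthetase complex. Transcription of many cytosolic synthetase genes is a known target of ATF4, the transcription factor of the amino acid response, and tryptophanyl-tRNA synthetase is known as an interferon-inducible gene.

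Values are FPKM, fragments per kilobase of transcript scaled to sequencing depth, so levels can be set side by side between genes. A change is the IL-33 mean less the PBS mean of log2(FPKM + 1), given with its standard error (SE). A gene is said to have risen or fallen where limma gave a Benjamini-Hochberg adjusted p under 0.05 over all 11518 tested genes. The deposited values summed to between 614522 and 641412 FPKM in the PBS libraries and between 778391 and 841884 in the IL-33 libraries, while relative depths, read from the spacing of low values, ran from 0.946 to 1.21 and overlapped between the groups. Rescaling every library to the same total moved the median change of all tested genes from 0.01 to -0.29 and the numbers that rose and fell from 3230 and 2939 to 1280 and 5840. All 16 dendritic cell markers examined were above 0, among them Itgax, which encodes CD11c, at 228 to 249 FPKM with PBS and 272 to 300 with IL-33. Of the 16, 7 rose and 7 fell. Those that rose included Batf3 (1.5) and Irf4 (0.50). Those that fell included Flt3 (-0.61) and Zbtb46 (-0.63), a receptor and a transcription factor of dendritic cells. Markers of several other cell types also moved with treatment, where 28% of all tested genes rose and 25.5% fell. The summed level of 9 eosinophil markers was 218 to 311 FPKM with PBS and 879 to 1258 with IL-33, with 7 risen. For 12 plasma cell markers it was 259 to 344 and 592 to 631, with 9 risen and 1 fallen. For 10 neutrophil markers it was 527 to 847 and 1243 to 2495, with 7 risen and 2 fallen. For 10 T cell markers it was 156 to 319 and 65.3 to 85.9, with 9 fallen, and for 9 NK cell markers 561 to 740 and 219 to 344, with all 9 fallen. Of 6 plasmacytoid dendritic cell markers 4 fell, and the sum of all 6 was 331 to 499 and 318 to 415. All 4 tested basophil and mast cell markers rose, and the sum over the 8 listed was 1.39 to 1.93 and 15.1 to 28.1. Of 17 proliferation genes 11 rose, at 399 to 541 and 586 to 643. Smaller shares moved for 12 macrophage markers (3 risen), 9 B cell markers (3 fallen) and 6 tested erythroid and platelet markers (1 risen). Among 8 monocyte markers 2 rose and 2 fell. No gene of these lists was at 0 in every library, and the part of any of these cells in the synthetase values was not tested.

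With IL-33, 7 of the 36 synthetase genes rose and 6 fell. Glutaminyl-tRNA synthetase (Qars), seryl-tRNA synthetase (Sars) and mitochondrial phenylalanyl-tRNA synthetase (Fars2) were among those that rose, and glutamyl-prolyl-tRNA synthetase (Eprs) was among those that fell. The 13 changed genes are 36.1% of the family, against 53.6% of all tested genes. All 36 passed the filter on low values, and 35 were at 1 FPKM or more in every library. The changes were small: the median absolute change was 0.16 for the family and 0.30 for all tested genes. An absolute change of 0.5 or more was seen for 3 synthetase genes (8.33%) and for 26.8% of tested genes. None of the 36 reached an absolute change of 1, against 5.39% of tested genes. In bulk RNA, fewer cells of a type and less RNA per cell cannot be told apart.

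By compartment, 5 cytosolic genes rose and 3 fell of 20, and 2 mitochondrial genes rose and 3 fell of 16. Among all tested genes 28% rose and 25.5% fell. The median change was 0.11 for the cytosolic and -0.07 for the mitochondrial genes. Relative to the median of all tested genes these were 0.10 and -0.08 as deposited, and 0.08 and -0.05 after equal totals. They were 0.01 and 0.01 after quantile normalization and -0.01 and 0.01 after cyclic loess, so the direction of the mitochondrial genes flipped under both, and that of the cytosolic genes under cyclic loess. After equal totals 1 cytosolic gene rose and 10 fell, and 2 mitochondrial genes rose and 10 fell, where 11.1% of tested genes rose and 50.7% fell. Without PBS replicate 2, IL-33 replicate 1 or IL-33 replicate 2, the cytosolic counts came down to 2 risen and 1 fallen, and without PBS replicate 1 only 1 fell. The mitochondrial genes that fell came down to 1 without any 1 library other than PBS replicate 3, and to 2 without that one. Over all tested genes the calls came down as well. They ran from 2622 to 3108 risen and from 2214 to 2768 fallen, against 3230 and 2939 with all 6 libraries. The 3 values of each group did not overlap for 20 of the 36 genes, 12 upward and 8 downward, against 63.6% of tested genes (32.7% upward and 30.9% downward). This held for 14 cytosolic genes (10 upward) and 6 mitochondrial genes (2 upward).

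**Figure D1:**
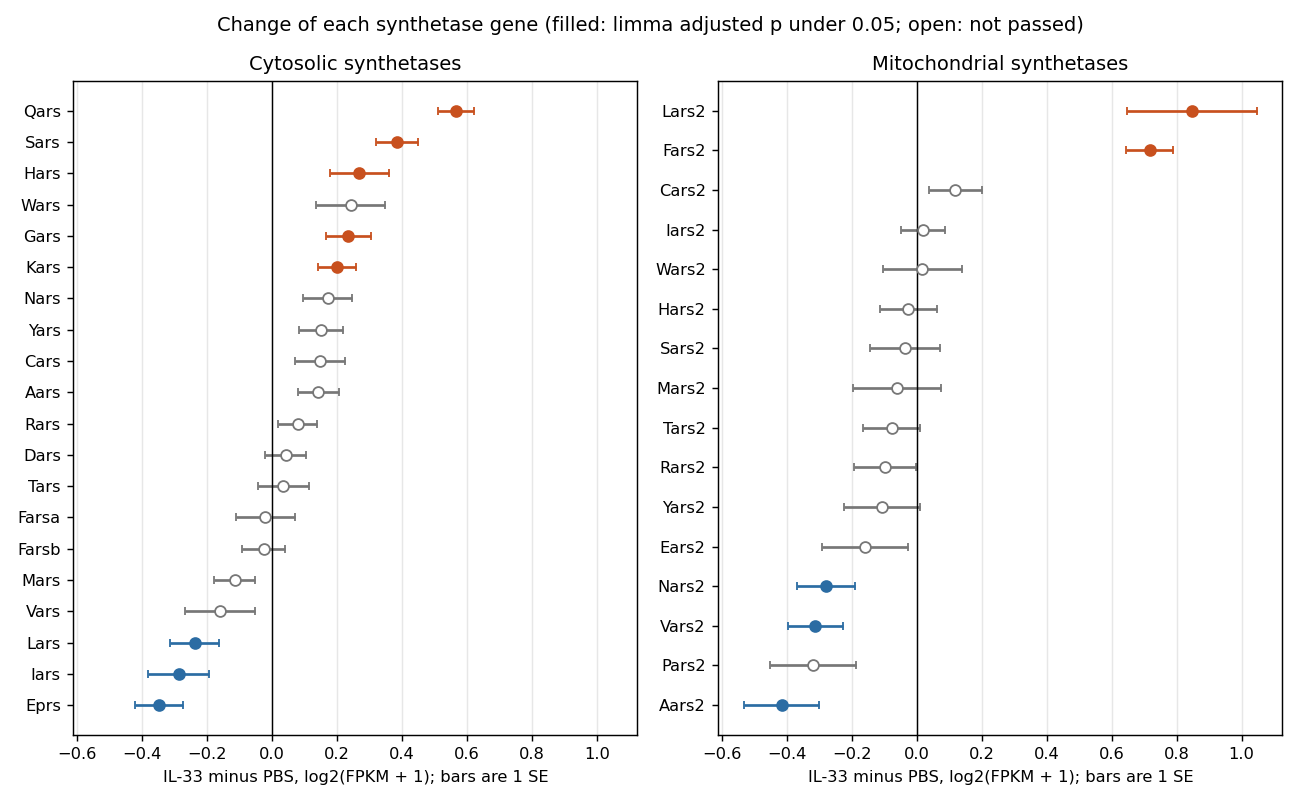
Change of each of the 36 synthetase genes on the horizontal axis (IL-33 minus PBS, log2(FPKM + 1), bars 1 SE, n = 3 per group), with cytosolic genes on the left and mitochondrial genes on the right; filled points passed an adjusted p of 0.05. Lars2, Fars2 and Qars lie beyond 0.5, and the genes that fell lie between -0.42 and -0.24.

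Most cytosolic genes were expressed at higher levels per length than most mitochondrial ones, with Lars2 as the main exception. Mean levels with PBS ran from 8.34 FPKM (Cars, cysteine) to 62.5 FPKM (Nars, asparagine), with a median of 22.6 FPKM. For the mitochondrial genes they ran from 1.34 FPKM (Ears2, glutamate) to 434 FPKM (Lars2, leucine), with a median of 7.30 FPKM, and 9 of the 16 lay below the lowest cytosolic gene. In order of level the cytosolic genes began with Nars, Kars (lysine), Vars (valine) and Qars, and the mitochondrial genes with Lars2, Iars2 (isoleucine) and Tars2 (threonine). The PBS ranges of neighbours in that order overlapped for 11 of 19 cytosolic pairs and for 7 of 15 mitochondrial pairs, so much of the order is not resolved. Nars, the highest cytosolic gene, had 57.9, 64.0 and 65.6 FPKM with PBS and 68.8, 67.8 and 75.0 with IL-33. The groups did not overlap, and the change of 0.17 ± 0.08 (SE) did not pass (adjusted p = 0.088). The summed cytosolic level was 536 to 555 FPKM with PBS and 596 to 597 with IL-33. As a percentage of a library's total FPKM the same sum was lower with IL-33, at 0.0709 to 0.0766% against 0.0835 to 0.0904%.

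**Figure D2:**
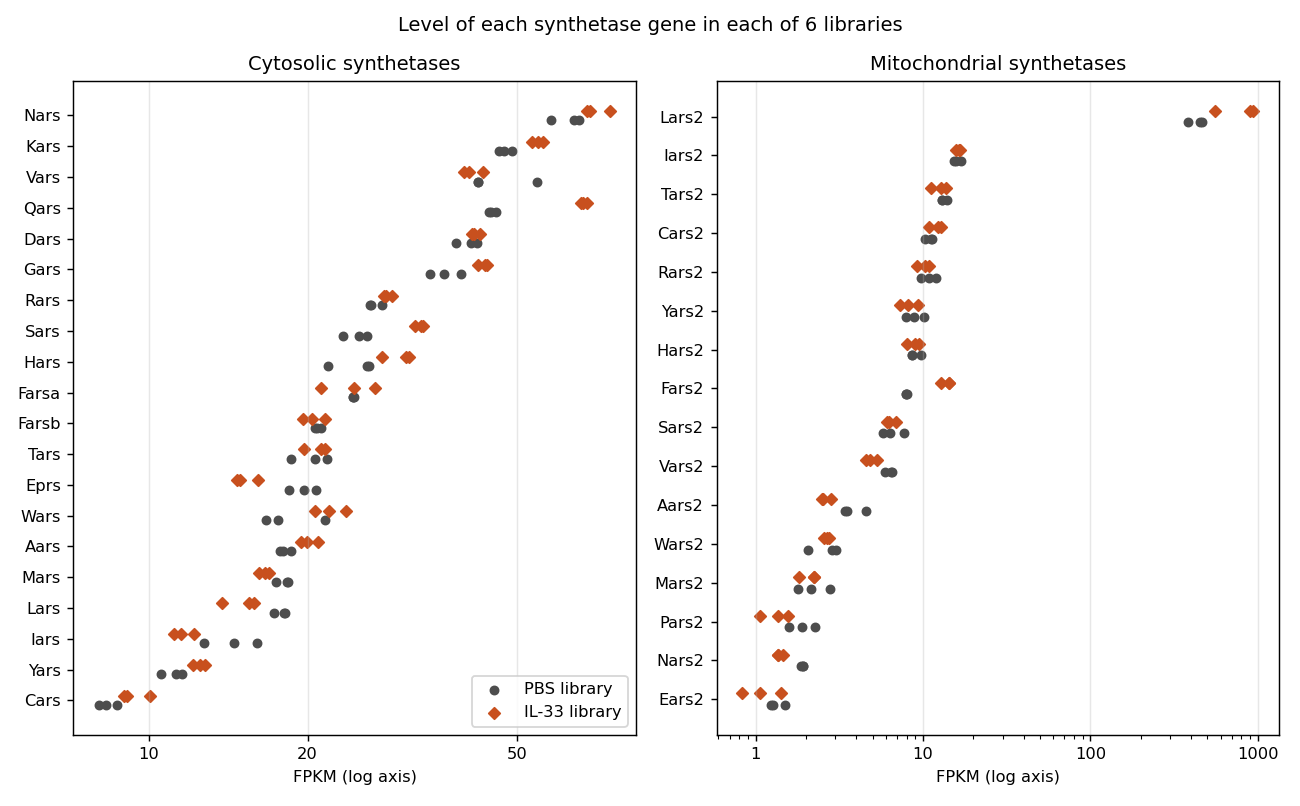
Level of each synthetase gene in each library (FPKM, log axes that differ between the panels), ordered by the PBS mean, with circles for PBS and diamonds for IL-33 libraries. Lars2 stands at 383 to 944 FPKM, while every other mitochondrial gene stays under 17 FPKM.

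The multi-synthetase complex holds 8 of the cytosolic members, and Qars was the one with the largest rise. Qars, which charges the glutamine tRNA, lies at chr9:108507706-108515941 on the plus strand (GRCm38). Its 3 PBS libraries gave 44.6, 44.2 and 45.6 FPKM and its 3 IL-33 libraries 66.6, 67.7 and 66.1 FPKM. The 3 IL-33 values sat close together and well above the 3 PBS values. The change was 0.57 ± 0.06 (SE), a 1.49-fold ratio of means (adjusted p = 0.0005, n = 3 per group). It passed under all 3 other scalings, with 0.23 after equal totals (adjusted p = 0.0172), and without each library in turn. Mitochondria make glutamine tRNA by another route in which glutamate is converted on the tRNA, so Qars has no mitochondrial counterpart in the list.

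Eprs joins glutamyl- and prolyl-tRNA synthetase in 1 protein and went the other way. The gene lies at chr1:185363044-185428360 on the plus strand (GRCm38). Its level was 19.7, 20.8 and 18.5 FPKM with PBS and 14.7, 14.9 and 16.1 with IL-33. All IL-33 values were below all PBS values. Eprs fell by 0.35 ± 0.07 (SE), to 0.775 of the PBS mean (adjusted p = 0.0068), and the call held without each library and under the 3 other scalings, with -0.67 after equal totals. It ended when trends with transcript length and GC content were removed (-0.13, adjusted p = 0.104). The ratio of Qars to Eprs within a library, which rescaling a whole library cannot change, was 2.26, 2.13 and 2.47 with PBS and 4.53, 4.56 and 4.10 with IL-33.

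Isoleucyl-tRNA synthetase (Iars) and leucyl-tRNA synthetase (Lars), both of the complex, also fell. Iars had 16.0, 14.5 and 12.7 FPKM with PBS and 11.1, 11.5 and 12.2 with IL-33, and fell by 0.29 ± 0.09 (SE, adjusted p = 0.0344). Lars, which is also known as a leucine sensor for mTORC1, had 18.1, 17.3 and 18.1 FPKM with PBS and 13.7, 15.5 and 15.8 with IL-33. It fell by 0.24 ± 0.07 (SE, adjusted p = 0.0308). Neither gene had overlapping groups, but the margin was narrow for Iars. Iars lost the call without PBS replicate 1, PBS replicate 2, IL-33 replicate 1 or IL-33 replicate 2 (adjusted p 0.0873 to 0.0975), after quantile normalization (0.0508) or cyclic loess (0.0697), and with no filter on low values (0.0558). Lars lost it without any 1 library other than IL-33 replicate 3 (adjusted p 0.0597 to 0.0865). A processed pseudogene elsewhere in the genome, Gm4849, matches the Iars transcript at 94.7% over 2251 bases, so some of the Iars reads may not be its own.

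The other complex members were steadier. Kars, lysyl-tRNA synthetase, is a gene whose transcripts encode both the cytosolic and the mitochondrial enzyme. It had 48.8, 46.2 and 47.2 FPKM with PBS and 55.9, 54.6 and 53.4 with IL-33. Its rise of 0.20 ± 0.06 (SE, adjusted p = 0.0235) was lost under all 3 other scalings, with a change of -0.13 after equal totals. It was also lost without PBS replicate 2, PBS replicate 3, IL-33 replicate 1 or IL-33 replicate 2 (adjusted p 0.0556 to 0.0802). Mars (methionine), Dars (aspartate) and Rars (arginine) changed by -0.11, 0.04 and 0.08 and did not pass. In the complex as a whole 2 of 8 enzymes rose and 3 fell, with a median change of -0.04. Outside it 3 of 12 cytosolic genes rose and none fell, with a median of 0.15. The share that rose was 25% in both sets, near the 28% of all tested genes, and 25.5% of all tested genes fell. Relative to all tested genes the complex enzymes stood at -0.05 and the others at 0.14, and at -0.07 and 0.13 after equal totals. With trends of transcript length and GC content removed, 1 complex enzyme rose and none fell. Outside the complex 2 then rose and 1 fell, where 25.2% of tested genes rose and 19.2% fell. Relative to all tested genes the 2 sets stood at -0.09 and 0.12 in that fit.

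Of the 3 scaffold proteins, Aimp1 rose. Aimp1 anchors synthetases in the complex and is also known as the precursor of a secreted cytokine-like fragment. It had 50.3, 54.1 and 53.5 FPKM with PBS and 82.9, 76.6 and 77.0 with IL-33, a change of 0.57 ± 0.07 (SE, adjusted p = 0.0008) that passed under the 3 other scalings, with 0.24 after equal totals. The groups were far apart, as for Qars. The ratio of Qars to Aimp1 overlapped between the groups, at 0.816 to 0.887 with PBS and 0.803 to 0.884 with IL-33. With trends of transcript length and GC content removed, the change was 0.26 for Aimp1 (adjusted p = 0.0053) and 0.50 for Qars. The scaffold Aimp2 changed by 0.23 (adjusted p = 0.151, and -0.09 after equal totals), and rose by 0.34 without IL-33 replicate 3 (adjusted p = 0.0414). The third, Eef1e1, changed by -0.03 (adjusted p = 0.789).

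Among cytosolic enzymes outside the complex, Sars had the largest rise. Sars had 25.0, 23.4 and 25.9 FPKM with PBS and 33.1, 32.9 and 32.0 with IL-33. Every IL-33 value exceeded every PBS value, and the change was 0.39 ± 0.07 (SE, adjusted p = 0.0029). The call held without each library and was lost after equal totals, where the change was 0.06 (adjusted p = 0.538).

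Histidyl-tRNA synthetase (Hars) and glycyl-tRNA synthetase (Gars) rose less. Gars, like Kars, encodes the enzyme of both compartments. Hars had 26, 21.8 and 26.1 FPKM with PBS and 31.2, 30.7 and 27.7 with IL-33, a rise of 0.27 ± 0.09 (SE, adjusted p = 0.0397). Gars had 36.3, 34.1 and 39.1 FPKM and then 43.9, 43.4 and 42.1, a rise of 0.24 ± 0.07 (SE, adjusted p = 0.0249). In both genes the lowest IL-33 library was just above the highest PBS library. Both lost the call under all 3 other scalings, with changes of -0.06 for Hars and -0.10 for Gars after equal totals. Hars lost it without PBS replicate 2, IL-33 replicate 1 or IL-33 replicate 2 (adjusted p 0.110 to 0.115) and with no filter on low values (0.0577). Gars lost it without PBS replicate 1, PBS replicate 2, IL-33 replicate 1 or IL-33 replicate 2 (adjusted p 0.0551 to 0.0858). Hars and Hars2 lie head to head on opposite strands and overlap by 198 bases, and the use of strand in the authors' counting is not given in the sources used here.

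Tryptophanyl-tRNA synthetase (Wars) had 21.6, 17.6 and 16.6 FPKM with PBS and 23.6, 22.0 and 20.7 with IL-33. PBS replicate 1 lay within the IL-33 range, and the change of 0.24 ± 0.11 (SE) did not pass (adjusted p = 0.0897). Without PBS replicate 1 Wars rose by 0.35 (adjusted p = 0.0168). The change was -0.08 after equal totals. Of 19 tested genes on a list of interferon-gamma response genes 8 rose and 4 fell, with a median change of -0.05. The guanylate-binding protein genes Gbp3 and Gbp2 rose by 1.5 and 1.48, and the chemokine gene Cxcl10 rose by 1.04. The shares were 42.1 and 21.1%, against 28 and 25.5% of all tested genes. After equal totals 3 of its genes rose and 10 fell (52.6%), near the 50.7% of all tested genes that fell.

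The cytosolic phenylalanyl-tRNA synthetase is built from an alpha subunit (Farsa) and a beta subunit (Farsb). Farsa had 24.5, 24.4 and 24.4 FPKM with PBS and 26.8, 24.5 and 21.2 with IL-33, and Farsb had 21.2, 20.6 and 20.8 and then 19.6, 20.3 and 21.6. Neither changed past the threshold (-0.02 and -0.03, adjusted p = 0.867 and 0.764). The ratio of alpha to beta was 1.16 to 1.18 in the PBS libraries and spread to 1.37, 1.20 and 0.981 in the IL-33 libraries, so the IL-33 libraries bracketed the PBS ones. The remaining cytosolic genes that did not pass were Vars (valine, -0.16), Tars (threonine, 0.04), Aars (alanine, 0.14), Cars (cysteine, 0.15) and Yars (tyrosine, 0.15). Aars overlaps Exosc6 by 1326 bases on the same strand, so reads there cannot be assigned to either gene alone. Vars had the widest PBS group of these 5, at 54.5, 42.2 and 42.1 FPKM. With IL-33 it had 39.5, 40.5 and 43.0 FPKM, and PBS replicate 1 alone stood apart.

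Among the mitochondrial enzymes the clearest change was in Fars2, the single-chain phenylalanyl-tRNA synthetase of mitochondria (chr13:36117412-36726280, plus strand, GRCm38). Fars2 had 7.91, 7.99 and 7.97 FPKM with PBS and 14.2, 12.8 and 14.2 with IL-33. The PBS values were nearly equal, and each IL-33 value was well above them. The change was 0.72 ± 0.07 (SE), a 1.73-fold ratio of means (adjusted p = 0.0005). It ran from 0.41 after equal totals (adjusted p = 0.0032) to 0.80 after cyclic loess, and passed under every alternative tried. Set against its cytosolic counterpart in the same library, Fars2 was 0.323 to 0.328 of Farsa with PBS and 0.521 to 0.671 of it with IL-33. Fars2 shares 115 bases at its start with the opposite-strand gene Lyrm4.

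Lars2, the mitochondrial leucyl-tRNA synthetase (chr9:123366927-123462666, plus strand, GRCm38), had a level unlike that of any other member. It had 383, 465 and 455 FPKM with PBS and 944, 555 and 900 with IL-33. The groups did not overlap, but IL-33 replicate 2 was much nearer to the PBS libraries than to the other 2. The change was 0.85 ± 0.20 (SE, adjusted p = 0.0103), and it was 0.51 after equal totals, 0.40 after quantile normalization (adjusted p = 0.0874) and 0.39 after cyclic loess (adjusted p = 0.109). Lars2 alone made up 78.3 to 89.9% of the summed mitochondrial level. The sum of the cytosolic over the sum of the mitochondrial genes was 1.14, 0.946 and 0.977 with PBS and 0.569, 0.901 and 0.596 with IL-33. Without Lars2 it was 5.22, 5.30 and 5.23 and then 5.63, 5.63 and 5.91, and its direction was the opposite.

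A reading of Lars2 as synthetase mRNA has a limit in these data. Rn45s, the precursor of ribosomal RNA, was chosen after its values were seen. It had 283, 294 and 317 FPKM with PBS and 652, 437 and 599 with IL-33, in the same order within the IL-33 group as Lars2. The ratio of Lars2 to Rn45s was 1.35, 1.58 and 1.43 with PBS and 1.45, 1.27 and 1.5 with IL-33, and the groups overlapped. The Lars2 transcript also shares 72 bases at 98.6% identity with the antisense RNA gene Gm15564. Whether reads of other RNA are counted in Lars2 was not tested.

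**Figure D3:**
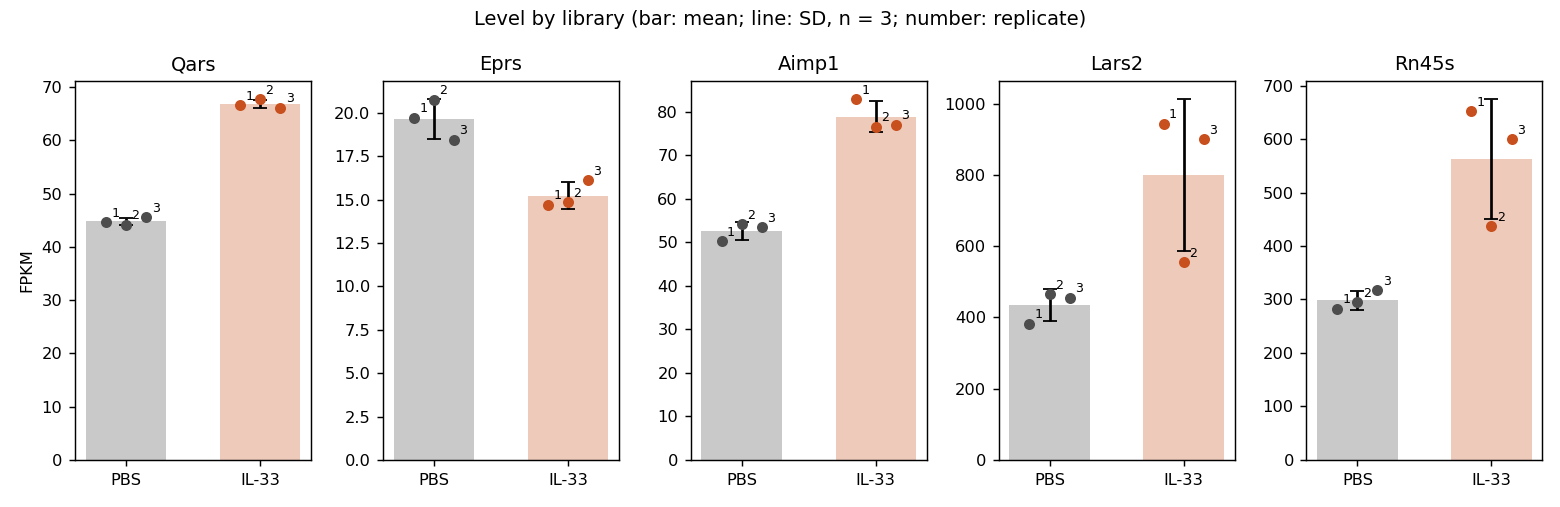
FPKM of Qars, Eprs, Aimp1, Lars2 and Rn45s (linear axes from 0) in each library, with bars for the mean, lines for the SD (n = 3) and numbers for the replicate. Qars and Aimp1 lie higher and Eprs lower with IL-33, and IL-33 replicate 2 is the lowest IL-33 library for both Lars2 (555 FPKM) and Rn45s (437 FPKM).

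Aars2 (alanine), Vars2 (valine) and Nars2 (asparagine) fell. Aars2 had 4.60, 3.41 and 3.51 FPKM with PBS and 2.81, 2.49 and 2.52 with IL-33, and fell by 0.42 ± 0.12 (SE, adjusted p = 0.0197). Vars2 had 6.56, 6.42 and 5.97 FPKM and then 4.55, 5.33 and 4.82, and fell by 0.31 ± 0.08 (SE, adjusted p = 0.0177). Nars2 had 1.92, 1.92 and 1.88 FPKM and then 1.45, 1.37 and 1.36, and fell by 0.28 ± 0.09 (SE, adjusted p = 0.0319). The groups did not overlap in these 3 genes, all of which have low levels, and equal totals gave -0.68, -0.60 and -0.49. Aars2 lost the call without IL-33 replicate 2 or 3 (adjusted p 0.0523 to 0.0596) and after cyclic loess (0.0747). Vars2 lost it without PBS replicate 1, PBS replicate 2 or IL-33 replicate 1 (adjusted p 0.0542 to 0.0581), after quantile normalization (0.0595) and after cyclic loess (0.106). Nars2 lost it without any 1 of the 6 libraries (adjusted p 0.0623 to 0.0904) and under the same pair of scalings (0.0818 and 0.203).

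The other 11 mitochondrial genes did not pass. Pars2 (proline) had the largest change among them, at -0.32 ± 0.13 (SE, adjusted p = 0.0758), with 1.89, 1.59 and 2.27 FPKM and then 1.57, 1.37 and 1.07. Its groups were separated by a narrow margin. Iars2, second in level, had 16.9, 15.9 and 15.4 FPKM with PBS and 16.6, 15.7 and 16.5 with IL-33, and Tars2, the third, had 14, 13.1 and 12.9 and then 12.9, 13.7 and 11.2. Both pairs of groups overlapped, with changes of 0.02 and -0.08. The rest were Cars2 (0.12), Wars2 (0.02), Hars2 (-0.03), Sars2 (-0.04), Mars2 (-0.06), Rars2 (-0.10), Yars2 (-0.11) and Ears2 (-0.16). The summed level of the mitochondrial genes without Lars2 was 101 to 106 FPKM in both groups. The threonyl-like gene Tarsl2, outside the list and looked up after the values were seen, changed by 0.09 (adjusted p = 0.559).

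Cytosolic and mitochondrial enzymes for the same amino acid were set against each other within each library, as 17 ratios that rescaling a whole library cannot change. The cytosolic gene was the higher one in all 6 libraries for 14 of them. The exceptions were Cars over Cars2 (0.717 to 0.830), Iars over Iars2 (0.670 to 0.951) and Lars over Lars2 (0.0146 to 0.0472). With IL-33 the ratio lay above the PBS range for 5 pairs, below it for 4 and overlapped it for 8. As single genes, 63.6% of all tested genes had groups that did not overlap, and no such share was taken for ratios. The pairs are not independent, since Farsa and Farsb are both set against Fars2, and Eprs against both Ears2 and Pars2. Aars over Aars2 was 3.9, 5.21 and 5.30 with PBS and 6.91, 8 and 8.3 with IL-33. Nars over Nars2 was 30.2, 33.3 and 34.9 and then 47.4, 49.5 and 55.1. These 2 pairs, with Hars, Sars and Yars over their mitochondrial counterparts, were the 5 that moved toward the cytosolic gene. The margin was narrow for Hars over Hars2, with a highest PBS ratio of 3.06 and a lowest IL-33 ratio of 3.08. For Yars over Yars2 these were 1.32 and 1.36. No trend with transcript length or GC content was removed from any of the 17 ratios. Farsa over Fars2 went the other way, at 3.10, 3.05 and 3.06 with PBS and 1.89, 1.92 and 1.49 with IL-33, as did Farsb over Fars2, Iars over Iars2 and Lars over Lars2.

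As a share of the summed cytosolic level, Qars took 8.04, 8.24 and 8.34% with PBS and 11.2, 11.4 and 11.1% with IL-33. The shares of Kars and Sars also lay above their PBS range, and those of Eprs, Farsb, Iars, Lars, Mars and Vars below it. Of the mitochondrial sum without Lars2, Fars2 took 7.44, 7.91 and 7.62% with PBS and 13.4, 12 and 14.1% with IL-33. By structural class of the catalytic domain, 2 of 19 class I genes rose and 4 fell, and 5 of 17 class II genes rose and 2 fell. These shares were 10.5 and 21.1% for class I and 29.4 and 11.8% for class II, against 28 and 25.5% of all tested genes. Their median changes were -0.06 and 0.04.

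Transcript length moved with the changes across the whole data set. Over the 11090 tested genes with an annotated length (96.3%), the change had a Spearman correlation of -0.46 with the length of the longest transcript, as a description across genes that share libraries. Over the 2775 shortest genes the median change was 0.31, and over the 2773 longest -0.29. Over the 36 synthetase genes the correlation was -0.30, with -0.38 for the 20 cytosolic and 0.01 for the 16 mitochondrial genes. Cytosolic genes that rose had a median length of 2380 bases and those that fell 4426 bases. After the trends with length and GC content across all genes had been removed, an alternative chosen after seeing the data, Qars (0.50), Sars (0.42), Fars2 (0.56) and Lars2 (0.93) still rose and Aars2 (-0.39) still fell. Eprs, Lars, Iars, Vars2, Nars2, Hars, Gars and Kars did not pass. Aars (0.38), Iars2 (0.27) and Mars2 (0.55), which did not pass as deposited, rose in that fit, and Farsa (-0.22) and Rars2 (-0.24) fell. In that fit 3 cytosolic genes rose and 1 fell, 4 mitochondrial genes rose and 2 fell, and 25.2% of tested genes rose and 19.2% fell. The cause of the length trend was not tested.

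**Figure D4:**
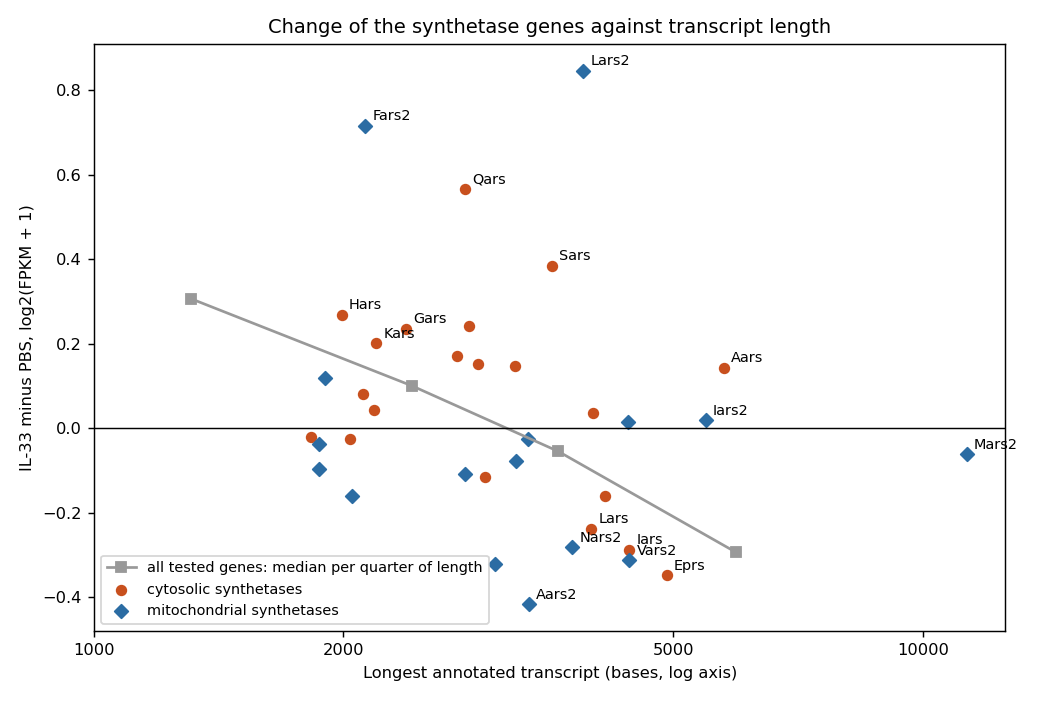
Change of each synthetase gene (IL-33 minus PBS, log2(FPKM + 1)) against the length of its longest annotated transcript in bases on a log axis, with circles for cytosolic and diamonds for mitochondrial genes; grey squares joined by a line are the medians of all tested genes in 4 bins of length. The median line falls from 0.31 to -0.29, and Qars, Sars, Fars2 and Lars2 lie above it.

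**Figure D5:**
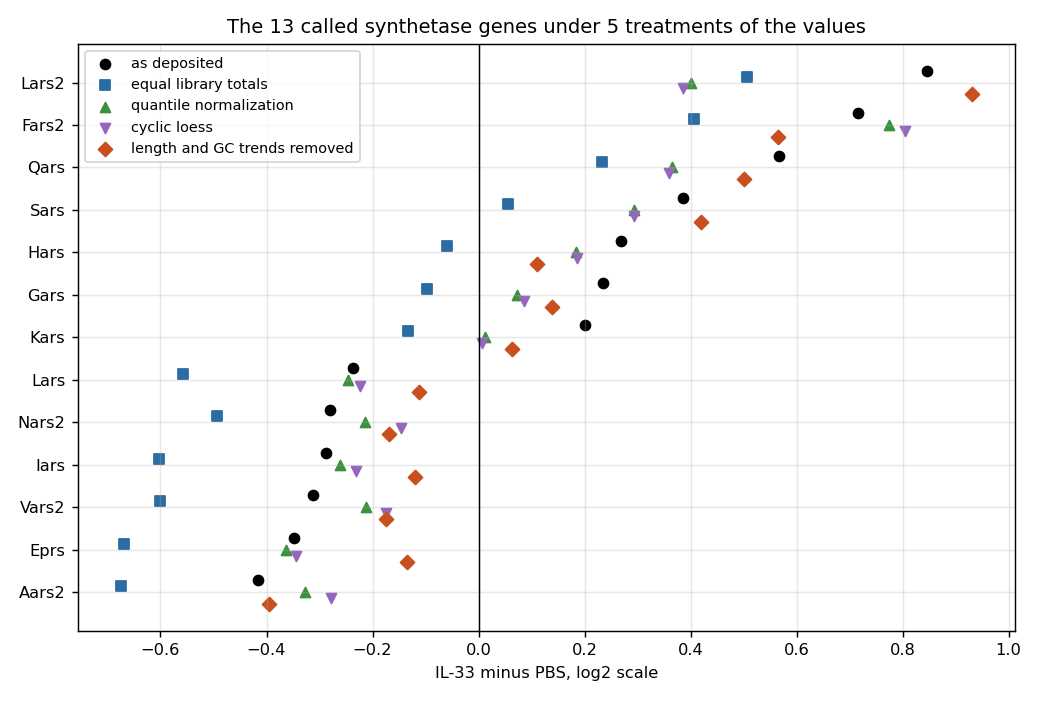
Change of the 13 synthetase genes that rose or fell (IL-33 minus PBS, log2 scale) as deposited and under 4 other treatments of the values, 1 gene per line. Qars, Sars, Fars2 and Lars2 stay to the right of 0 under all 5. Eprs, Iars, Lars, Aars2, Vars2 and Nars2 stay to the left, and Hars, Gars and Kars cross 0 after equal totals.

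Charged tRNAs are delivered to the ribosome by the elongation factor eEF1A. All 5 genes listed for eEF1 and eEF2 rose, with a median change of 0.51, where 28% of all tested genes rose. Eef2, the translocation factor, rose by 0.62, and the eEF1 subunits Eef1g and Eef1b2 rose by 0.56 and 0.44. After equal totals 3 of the 5 still rose, after quantile normalization 1 and after cyclic loess none, with Eef1b2 at -0.02 and -0.004. Of all tested genes 11.1, 22.1 and 23.7% rose under these 3 scalings. Of 7 genes of proteins that clear wrongly charged tRNA or free stalled peptidyl-tRNA 3 rose and 1 fell. These are 42.9 and 14.3% of the list, against 28 and 25.5% of all tested genes. After equal totals 1 (14.3%) rose and 1 (14.3%) fell, against 11.1 and 50.7%. Among the 7, Ptrhd1 rose by 0.61, and Dtd1, a D-aminoacyl-tRNA deacylase, fell by 0.36. Of 13 genes of mitochondrial translation factors and of enzymes that act on charged mitochondrial tRNA, 2 rose and none fell. These are 15.4 and 0%, against 28 and 25.5% of all tested genes. The elongation factor gene Tufm rose by 0.49 and the ribosome recycling factor gene Mrrf by 0.35. The initiation factor gene Mtif2 changed by -0.22 (adjusted p = 0.0837), and after equal totals none of the 13 rose and 6 fell (46.2%), near the 50.7% of all tested genes. Without PBS replicate 3 Mtif2 fell by 0.29 (adjusted p = 0.0348).

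Of 25 tested genes on a list of ATF4 and amino acid response genes 14 rose and 2 fell, with a median change of 0.34. These are 56 and 8% of the list, against 28 and 25.5% of all tested genes. After equal totals 6 (24%) rose and 7 (28%) fell, against 11.1 and 50.7%. Ddit3, the stress-induced factor CHOP, rose by 1.46, Chac1, a glutathione-degrading enzyme, by 1.53, and the large neutral amino acid transporter gene Slc7a5 by 0.68. Atf4 itself had 288, 361 and 328 FPKM with PBS and 402, 400 and 424 with IL-33. It rose by 0.33 ± 0.09 (SE, adjusted p = 0.0187), with a change of -0.01 after equal totals, -0.11 after quantile normalization and -0.09 after cyclic loess, and it lost the call without IL-33 replicate 3 (adjusted p = 0.0587). Mars, which overlaps Ddit3 by 68 bases on the opposite strand, changed by -0.11 and did not pass. Of 16 growth genes linked to mTORC1 and MYC 6 rose and 3 fell, with a median change of -0.11. These are 37.5 and 18.75% of the list, against 28 and 25.5% of all tested genes. After equal totals 2 (12.5%) rose and 9 (56.25%) fell, against 11.1 and 50.7%. The 3 with the smallest adjusted p all rose, namely Odc1 (polyamine synthesis, 1.40), Fbl (0.56) and Npm1 (0.38). Npm1 changed by 0.04 after equal totals and by -0.05 after quantile normalization.

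Promoters of 27 of the 36 genes were found in the RefSeq table for GRCm38.p6, as 250 bases before to 50 bases after the start. The core of the element bound by C/EBP and ATF factors, written TGATGNAA and searched on both strands, was found in 5 of 13 cytosolic promoters and in 0 of 14 mitochondrial ones. It was present in 4.06% of all 27025 promoters of that length. An E-box, CACGTG, was found in 4 cytosolic promoters and 1 mitochondrial promoter, against 7.24% of all. Windows of 30 bases around a match to the first motif are shown, 1 for each of the 5 genes, because these 5 cytosolic promoters have the motif in common, with the motif in capitals and each read 5′ to 3′ on the strand that carries it. They are chr8:111033840-111033869 (minus strand) for Aars, chr6:55037960-55037989 (minus) for Gars, chr13:49682126-49682155 (minus) for Iars, chr15:11399655-11399684 (plus) for Tars and chr4:129189895-129189924 (plus) for Yars.
Aars: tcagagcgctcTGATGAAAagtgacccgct
Gars: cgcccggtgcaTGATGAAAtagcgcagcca
Iars: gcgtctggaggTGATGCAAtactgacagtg
Tars: agctaaccagcTGATGCAAcgggactcctg
Yars: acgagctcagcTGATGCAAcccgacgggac

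Of the matches shown, all but that of Yars lay on the strand opposite to the gene, and they ran from -30 to 17 relative to the start. Of the 5 genes with a match, Gars rose, Iars fell and Aars, Tars and Yars did not pass. Qars and Sars, which rose more, had no match in this window, and the promoters of Cars, Hars, Lars, Nars, Rars, Vars, Wars, Hars2 and Pars2 were not analysed here. A match describes letters in the sequence and does not show binding.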

How the data were processed

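RNA from splenic CD11c+ cells (3 IL-33 and 3 PBS libraries) was sequenced from a stranded mRNA kit, per the labels' protocols. The authors deposited FPKM per gene, made with TopHat2 2.0.13, Bowtie2 2.2.3, SAMtools 0.1.19 and Cuffnorm 2.2.1 on mm10, per the submitters' processing notes. No annotation, use of strand or scaling between libraries is given in the sources used here. FPKM carries no counts, so absolute depth is unknown and no counting interval is given. Relative depth came from the steps between values of at most 0.3 FPKM.

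Genes that reached 1 FPKM in 3 or more of the 6 libraries were tested as log2(FPKM + 1), a scale that understates the change of low genes. limma 3.58.1 (R 4.3.3, moderated variance with trend, no block) compared IL-33 with PBS over all 11518 genes, two-sided, with Benjamini-Hochberg adjustment. Members and lists were chosen with earlier results of these data known, so lists are given by counts and medians only. Every member is accounted for, and all 6 values are given for the 6 with the smallest adjusted p and the 3 highest in each compartment, for those called lower, and for Wars. The scaffolds and up to 3 genes per pathway list with the smallest adjusted p are named. Vars, Farsa, Farsb, Pars2, Atf4, Rn45s and Tarsl2 were described after their values were seen. Some results that the naming rule takes are not reported here. Alternatives were pseudocounts of 0.1 and 0.5, no filter or a filter of 5 FPKM, equal totals, quantile and cyclic loess scaling, other variance models, library weights, a replicate block, a threshold of 0.01, leaving out each library and, added later, removal of length and GC trends. Positions, lengths and overlaps came from GENCODE on GRCm38, the assembly also called mm10. Code was tested on simulated data. Tables were made with Python 3.11.15 and pandas 2.3.3.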

Additional observations from a re-analysis of the deposited data

How the results depend on the processing

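The limits are the small number of libraries, the unknown absolute depth, the unstated scaling and a change that follows transcript length. Pseudocounts of 0.1 or 0.5, a robust variance and a variance without trend kept the direction and the call of all 58 genes examined singly, and those variance settings and pseudocounts left the compartment counts as they were. The cause was not tested for any of the shifts below. With no filter 4 cytosolic genes rose and 2 fell, Hars and Iars being lost. Equal totals gave 1280 genes higher and 5840 lower among all tested, 1 and 10 cytosolic, 10 mitochondrial lower, and medians of -0.21 and -0.34. A threshold of 0.01 gave 2125 and 1670 of all genes, 2 and 1 cytosolic, and 1 and 0 mitochondrial. Quantile normalization gave 3 and 2 cytosolic, 1 and 1 mitochondrial, and medians of -0.0059 and -0.0027. Cyclic loess gave 4 and 2 cytosolic, 1 and 0 mitochondrial and medians of -0.00051 and 0.019. Of all tested genes 22.1% rose and 25.0% fell after quantile normalization, and 23.7% and 23.0% after cyclic loess. A filter of 5 FPKM, which leaves fewer genes, gave 1 mitochondrial gene lower, and library weights 6 cytosolic genes higher and a mitochondrial median of -0.028. Removing length and GC trends gave 3 and 1 cytosolic, 4 mitochondrial higher and a cytosolic median of 0.081. Same-numbered libraries deviated with correlations of 0.075, -0.054 and 0.089, so the numbers were not taken as pairs. With the replicate block 2 cytosolic genes rose and 1 fell, and Gars, Hars, Iars, Kars, Lars and Nars2 did not pass. Without 1 library at a time, the cytosolic counts ran from 2 to 5 higher and 1 to 3 lower, the mitochondrial genes lower from 1 to 2, and the medians from 0.093 to 0.13 and from -0.11 to -0.040. Of all tested genes 2622 to 3108 were then higher and 2214 to 2768 lower.

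Signs that changed after equal totals were those of Aars (-0.18), Cars (-0.16), Dars (-0.29), Gars (-0.097), Hars (-0.060), Kars (-0.13), Nars (-0.16), Rars (-0.25), Tars (-0.29), Wars (-0.082), Yars (-0.16), Cars2 (-0.19), Iars2 (-0.30), Wars2 (-0.23), Aimp2 (-0.092) and Atf4 (-0.0059). After quantile normalization they were those of Dars (-0.12), Nars (-0.060), Rars (-0.0072), Tars (-0.0046), Hars2 (0.063), Mars2 (0.017), Sars2 (0.050), Eef1b2 (-0.021), Npm1 (-0.049) and Atf4 (-0.11). After cyclic loess they were those of Dars (-0.11), Nars (-0.069), Rars (-0.0060), Hars2 (0.083), Mars2 (0.075), Sars2 (0.097), Yars2 (0.0045), Eef1b2 (-0.0036), Npm1 (-0.075) and Atf4 (-0.095). With library weights they were those of Mars2 (0.049), Sars2 (0.062) and Eef1e1 (0.0032). Without length and GC trends they were those of Dars (-0.031), Rars (-0.033), Cars2 (-0.073), Hars2 (0.022), Mars2 (0.55) and Aimp2 (-0.11). Without 1 library the sign varied for Eef1e1 (-0.088 to 0.0093), Farsa (-0.096 to 0.067), Farsb (-0.062 to 0.0063), Hars2 (-0.072 to 0.036), Iars2 (-0.0076 to 0.053), Mars2 (-0.16 to 0.056), Sars2 (-0.12 to 0.063), Tars (-0.024 to 0.084) and Wars2 (-0.10 to 0.094).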
